A study of Mus musculus with 13 samples.

Results

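Endoplasmic reticulum (ER) stress genes are the genes of the unfolded protein response, the program a cell runs when proteins fold badly in its ER. The members were taken by symbol from the gene tables of a mouse bleomycin study: Atf6, Ern1, Xbp1, Ddit3, Hspa5, Hyou1, Sdf2l1, Dnajb9, Pdia4 and Creld2. All 10 were present among the 20270 genes listed, and all 10 were among the 15315 genes with enough counts to be tested. RNA was read from the lower right lung lobe of 13 mice, the lobe of each mouse giving 1 library. The Control group was 4 male C57BL/6J mice, purchased at 13 weeks of age, that received saline. The WT bleomycin group was 5 such mice given bleomycin, a DNA-damaging drug that scars the lung, once through the oropharynx at 1 U per kg. The CB1R KO bleomycin group was 4 mice with a global deletion of Cnr1, the gene of cannabinoid receptor 1 (CB1R), on the same strain background, given the same dose. Both bleomycin groups were sampled at day 14. The age of the CB1R KO mice was not given in the sources used here, and the authors' paper states no sex for them. No CB1R KO lung free of the drug was analysed here, so CB1R KO bleomycin against Control mixes the drug with the deletion. The libraries are named below by their label numbers, in the order 3, 21, 24 and 26 for Control, 4, 2, 5, 4-B2 and 7 for WT bleomycin, and 8, 9, 10 and 11 for CB1R KO bleomycin. The titles of Control 26 and of WT bleomycin 4-B2 and 7 hold capitals. All other titles, with all of CB1R KO bleomycin, are in lower case, so title style is partly confounded with group. What title style stands for was not given in the sources used here.

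The unfolded protein response is sensed by proteins in the ER membrane. Ern1 encodes IRE1, which cuts the Xbp1 mRNA so that it is spliced into the form that encodes the active transcription factor, Atf6 encodes a factor that is released by cleavage in the Golgi, and Eif2ak3 encodes PERK, which slows translation and raises Ddit3, the stress factor also called CHOP. The targets of these factors include Hspa5, which encodes BiP, the main chaperone of the ER lumen, its partners Hyou1, Dnajb9 and Sdf2l1, and the folding enzymes Pdia4 and Creld2. In lung, cells with a large secretory load use this machinery heavily, among them surfactant-making type II cells, plasma cells and collagen-making fibroblasts. The readout here is total mRNA per gene, which cannot tell spliced from unspliced Xbp1, and measures neither cleavage of ATF6 nor phosphorylation of IRE1 or PERK.

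The promoters of the members are shown because an ER stress element (ERSE), the pair of boxes CCAAT and CCACG with 9 bases between them, is the textbook landing site of ATF6 and XBP1 in front of such genes. The 250 bases before the gene start were taken from RefSeq on build GRCm38.p6, which is not the build of the authors' reference, for 8 of the 10 members. Atf6 and Hyou1 had no entry. This pattern of 10 fixed letters was searched on both strands and were found in 2 of the 8, Hspa5 and Creld2, against 0.113% of the 32851 promoters in the table and 0.124% of the 15284 promoters of genes tested. In Hspa5 (chr2:34771840-34772089, plus strand) the match ran from base -65 to -47 before the start. In Creld2 (chr15:88819396-88819645, plus strand) it lay on the other strand from -126 to -108. Sdf2l1 (chr16:17132384-17132633, minus strand), the member with the largest fold change below, is printed for contrast and had no such match in this window. Capitals mark the 10 fixed bases of the element, and each sequence is written 5′ to 3′ on the strand of its gene.

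Hspa5: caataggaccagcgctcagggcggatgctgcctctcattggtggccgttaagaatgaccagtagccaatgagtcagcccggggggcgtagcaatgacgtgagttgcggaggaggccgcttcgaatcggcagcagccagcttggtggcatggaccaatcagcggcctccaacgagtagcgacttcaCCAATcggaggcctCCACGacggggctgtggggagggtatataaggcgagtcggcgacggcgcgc

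Creld2: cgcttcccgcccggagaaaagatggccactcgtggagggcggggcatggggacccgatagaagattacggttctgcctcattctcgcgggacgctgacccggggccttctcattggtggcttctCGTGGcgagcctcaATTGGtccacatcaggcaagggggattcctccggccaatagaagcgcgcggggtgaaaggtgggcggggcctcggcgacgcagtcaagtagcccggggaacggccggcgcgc

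Sdf2l1: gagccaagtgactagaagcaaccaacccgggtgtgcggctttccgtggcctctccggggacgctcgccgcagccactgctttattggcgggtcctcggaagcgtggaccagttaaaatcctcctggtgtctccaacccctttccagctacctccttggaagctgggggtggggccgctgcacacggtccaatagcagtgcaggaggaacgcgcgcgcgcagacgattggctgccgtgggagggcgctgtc

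Among these 8 promoters no other searched element was found, namely ERSE-II (ATTGG, any base, then CCACG, in 0.0304% of all promoters), the XBP1 element UPRE (TGACGTGG, 0.563%), CRE (TGACGTCA, 1.55%) and the ATF4 element CARE (TGATGNAAT, 0.816%), each searched on both strands. The searched elements are distinct strings that overlap in their letters when both strands are read. ERSE, ERSE-II and UPRE share CCACG, ERSE and ERSE-II also share CCAAT, and UPRE and CRE share TGACGT. The absence of a match says only that these letters are not in this window.

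The libraries were lung by their markers, with Sftpc of type II cells, Scgb1a1 of club cells, Ager of type I cells and Pecam1 of endothelium at 266.4 TPM or more in each. TPM is the authors' value scaled for transcript length and library total. Of the libraries, 12 held between 14615904 and 16662580 estimated counts, and CB1R KO bleomycin 11 held 3.33 times the median of the others. Cnr1 was counted in every library, with 27 to 69 estimated counts in Control, 50 to 110 in WT bleomycin and 41 to 188.1 in CB1R KO bleomycin, and did not differ past the threshold between the last groups (log2 fold change -0.53, standard error 0.28, adjusted p = 0.367). Which part of Cnr1 the reads came from was not given in the sources used here, so these counts do not check the genotype and the directions below rest on the labels. Control 3 had a summed B cell marker level of 735 CPM where the other 3 control libraries had 298 to 383, Control 21 had a summed macrophage marker level of 2163 CPM where the others had 836 to 973, and Control 26 had the highest muscle marker sum of the 13 libraries, 1938 CPM. Control 26 also had the highest sum of immediate early genes such as Fos and Jun, 2750 CPM. The other controls had 1625 to 1870, WT bleomycin 1332 to 2153 and CB1R KO bleomycin 1436 to 1779.

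The levels of the members spanned a wide range in control lung. On the TPM scale, Hspa5 was highest in Control (232 ± 17.4, SD, n = 4), followed by Xbp1 (153 ± 11.5, n = 4) and Pdia4 (73.7 ± 3.99, n = 4). Dnajb9 (44.0 ± 5.85), Creld2 (43.6 ± 3.11), Hyou1 (40.8 ± 1.72) and Ddit3 (36.4 ± 3.66) came next in Control TPM, each overlapping its neighbour in that order. Atf6 (23.5 ± 0.846 TPM), Sdf2l1 (21.3 ± 3.91 TPM) and Ern1 (17.5 ± 0.992 TPM) were lowest, and Sdf2l1 overlapped both of the others. Hspa5, Xbp1 and Pdia4 kept ranks 1 to 3 in both bleomycin groups and Ern1 stayed at rank 10. Sdf2l1 moved from rank 9 in Control to rank 4 in WT bleomycin (54.8 ± 9.48 TPM, n = 5) and rank 6 in CB1R KO bleomycin (53.9 ± 6.35 TPM, n = 4), and its WT bleomycin range overlapped those of Hyou1 and Creld2 below it. The TPM of the 10 members summed to 685 ± 29.7 in Control, 946 ± 53.4 in WT bleomycin and 1017 ± 74.3 in CB1R KO bleomycin. Hspa5 alone made up 32.5% to 35.2% of that sum in Control libraries, 36.2% to 39.9% in WT bleomycin and 38.9% to 40.7% in CB1R KO bleomycin.

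The first question was whether bleomycin moved these genes in WT lung. Of the 10 members, 6 passed an adjusted p of 0.05 in WT bleomycin against Control, 5 of them higher and 1 lower, where 48.9% of all genes tested passed (25.0% higher and 23.9% lower). The 5 that rose were Hspa5, Xbp1, Hyou1, Pdia4 and Sdf2l1, with fold changes between 1.27 and 2.53, and Dnajb9 fell by 0.31 on the log2 scale. The median log2 fold change of the 10 members was 0.28, beside -0.01 over all genes tested, and 6 of the 10 were above 0, as were 49.2% of all genes. An unadjusted p under 0.05 was reached by 7 of the 10 members and by 55.2% of all genes. In 5 of the 10 the WT bleomycin and Control libraries did not overlap, where 40.3% of all genes tested had no overlap. Because whole lobes were sequenced, more RNA per cell and more cells of a type that carries the gene cannot be told apart in any of these values.

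Among the chaperones and folding enzymes, 4 of 6 rose. Values are CPM, counts scaled to a common library total, and adjusted p-values are Benjamini-Hochberg values from edgeR's quasi-likelihood test over all genes tested. Hspa5, which encodes BiP, read 402, 371, 410.3 and 461 CPM in the Control libraries, 667, 621, 682, 580.2 and 568 in WT bleomycin, and 688, 605, 749 and 683 in CB1R KO bleomycin. All 9 bleomycin libraries lay above all 4 controls. The rise in WT bleomycin was 0.60 on the log2 scale (standard error 0.08, 95% interval 0.42 to 0.78, adjusted p = 4.03e-05), or 1.52-fold.

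Sdf2l1 encodes a small ER protein that works with BiP's co-chaperones, and it had the largest fold change of the 10. It read 16.9, 13.6, 12.9 and 11.7 CPM in Control, 30.6, 33.2, 45.9, 34.7 and 30.1 in WT bleomycin, and 31.7, 28.9, 38.3 and 34.9 in CB1R KO bleomycin. The lowest bleomycin library was well above the highest control, Control 3, and WT bleomycin 5 was the highest of the 13. The log2 fold change in WT bleomycin was 1.34 (standard error 0.14, 95% interval 1.04 to 1.64, adjusted p = 3.60e-06), a 2.53-fold rise.

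Pdia4 encodes ERp72, a disulfide isomerase that remakes the sulfur bridges of folding proteins. Its levels were 117, 118, 119 and 109.9 CPM in Control, 163, 176, 174, 158 and 153 in WT bleomycin, and 165, 149.8, 199.7 and 184 in CB1R KO bleomycin. The control libraries were tight and all lay below the bleomycin ones. Pdia4 rose by 0.50 on the log2 scale in WT bleomycin (standard error 0.08, adjusted p = 0.000101).

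Hyou1 encodes GRP170, a large chaperone that recharges BiP with nucleotide. The Control libraries held 116, 114, 113 and 119 CPM of Hyou1, the WT bleomycin libraries 151, 155, 156, 133 and 138, and the CB1R KO bleomycin libraries 161, 148, 168 and 161. Again no bleomycin library reached down to a control, and the log2 fold change in WT bleomycin was 0.35 (standard error 0.06, adjusted p = 0.000289).

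Xbp1 was the one transcription factor of the set that rose. Its mRNA, spliced and unspliced together, stood at 175, 178, 203 and 208 CPM in Control, 249, 234, 230.5, 284 and 262 in WT bleomycin, and 227, 210.4, 258 and 238 in CB1R KO bleomycin. WT bleomycin libraries were all above the controls, while the lowest CB1R KO library, 9, lay just above Control 26. Xbp1 rose by 0.40 on the log2 scale in WT bleomycin (standard error 0.08, adjusted p = 0.000953).

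Creld2 encodes an ER protein with folding activity that is readily induced by ER stress. It read 33.8, 34.3, 36.9 and 41.0 CPM in Control, 44.0, 35.8, 43.8, 41.7 and 45.7 in WT bleomycin, and 46.4, 45.4, 43.3 and 53.7 in CB1R KO bleomycin. WT bleomycin 2 sat among the controls and the other 4 WT bleomycin libraries were above them. The log2 fold change in WT bleomycin was 0.21 (standard error 0.09, adjusted p = 0.0627), which missed the threshold. It was past it without WT bleomycin 2 (0.26, adjusted p = 0.0192), without Control 26 (0.26, adjusted p = 0.0326) and without CB1R KO bleomycin 11 (0.21, adjusted p = 0.0404).

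**Figure D1:**
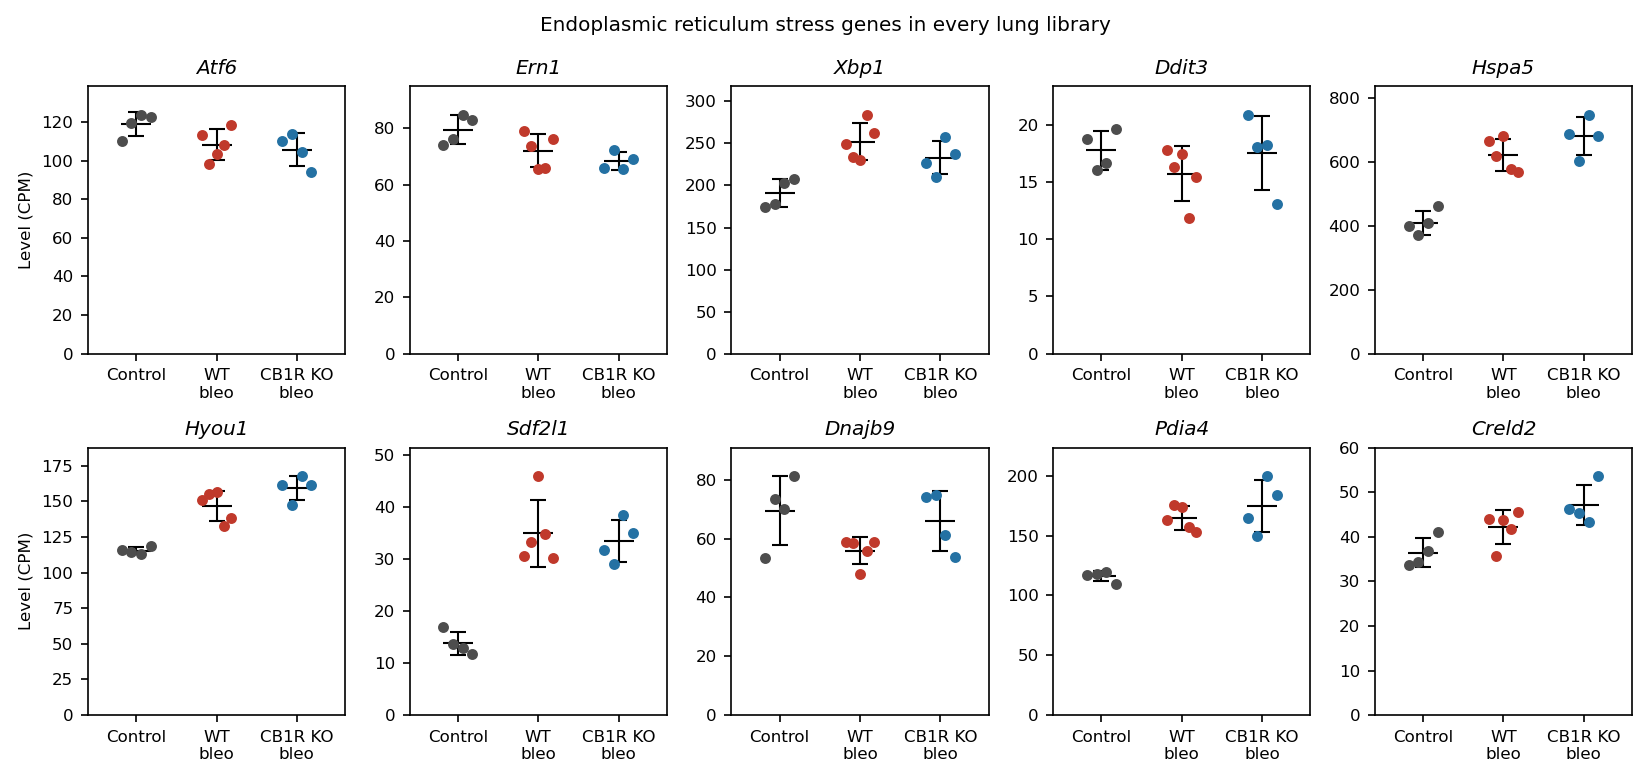
Level of each of the 10 ER stress genes in every library, in CPM (y axis from 0, its own scale in each panel), by group (x axis: 4 Control, 5 WT bleomycin and 4 CB1R KO bleomycin libraries). Points are libraries, the short bar and whiskers are the mean and SD. Hspa5, Hyou1, Sdf2l1, Pdia4 and Xbp1 have every bleomycin library above every control, and the 2 bleomycin groups overlap in all 10 panels.

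The sensors and the remaining factors did not rise. Atf6 read 110.4, 119, 124 and 123 CPM in Control, 113, 98.3, 103, 108 and 118 in WT bleomycin, and 110.2, 114, 104 and 94.1 in CB1R KO bleomycin, with the groups overlapping. Its log2 fold change in WT bleomycin was -0.14 (standard error 0.07, 95% interval -0.28 to 0.01, adjusted p = 0.119). Ern1, the gene of IRE1, read 74.0, 76.4, 84.9 and 82.9 CPM in Control, 78.9, 73.9, 65.7, 66.0 and 76.1 in WT bleomycin, and 66.1, 72.5, 65.7 and 69.1 in CB1R KO bleomycin. WT bleomycin overlapped Control for Ern1 (log2 fold change -0.14, standard error 0.07, 95% interval -0.29 to 0.01, adjusted p = 0.105), and the 4 CB1R KO libraries all lay below the lowest control.

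Ddit3, the gene of CHOP, was among the members with the fewest reads. It stood at 18.8, 16.0, 16.7 and 19.7 CPM in Control, 17.8, 16.3, 17.5, 11.8 and 15.4 in WT bleomycin, and 20.9, 18.1, 18.3 and 13.1 in CB1R KO bleomycin. The groups overlapped, and the lowest libraries were WT bleomycin 4-B2 and CB1R KO bleomycin 11. The log2 fold change in WT bleomycin was -0.17 with a 95% interval of -0.48 to 0.13 (standard error 0.14, adjusted p = 0.328), and without WT bleomycin 4-B2 it was -0.08.

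Dnajb9 encodes ERdj4, a co-chaperone that hands clients to BiP and restrains IRE1, and it was the one member called lower in WT bleomycin. Its levels were 53.3, 73.5, 70.0 and 81.2 CPM in Control, 58.8, 58.4, 48.0, 55.7 and 58.7 in WT bleomycin, and 74.2, 74.7, 61.3 and 53.6 in CB1R KO bleomycin. Control 3 lay inside the WT bleomycin range, while the other 3 controls were above it. The log2 fold change was -0.31 (standard error 0.12, 95% interval -0.57 to -0.05, adjusted p = 0.0447). Without Control 3 it was -0.42 (adjusted p = 0.00624). The call was lost without Control 21, 24 or 26, without any of the 5 WT bleomycin libraries, and without CB1R KO bleomycin 10, with values from -0.33 to -0.24 and adjusted p from 0.054 to 0.141. It was also lost in limma on log2(TPM + 1) (-0.28, adjusted p = 0.0652) and log2(TPM + 0.1) (-0.29, adjusted p = 0.0648). In edgeR it was lost with only lower-case titles (-0.25, adjusted p = 0.222) and with the adipocyte covariate (-0.34, adjusted p = 0.0757). The call was held in 13 of 26 alternatives.

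**Figure D2:**
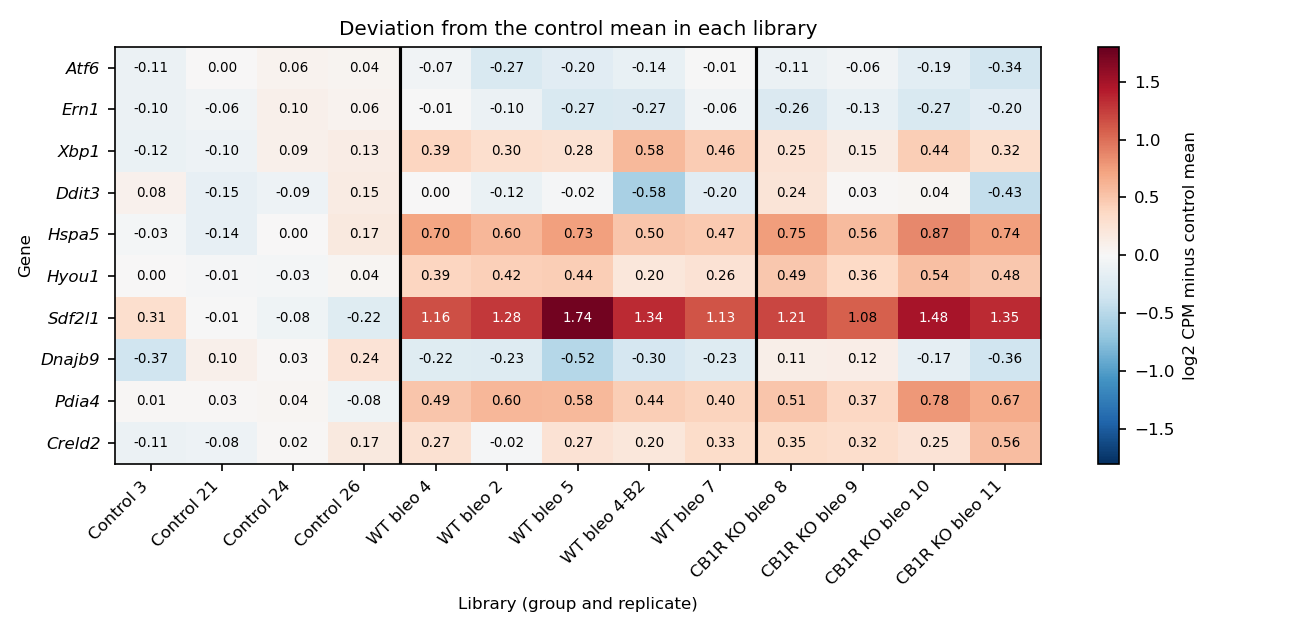
Log2 CPM of each ER stress gene (rows) in each library (columns, by group and replicate) minus the mean of the 4 Control libraries; red is above and blue below that mean, with the value printed. Sdf2l1 runs from 1.08 to 1.74 in the 9 bleomycin libraries, and Dnajb9 in Control 3 is at -0.37, beside bleomycin libraries from -0.52 to 0.12.

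The second question was whether the genes differed between CB1R KO and WT lungs after bleomycin. None of the 10 members passed the adjusted p of 0.05 in edgeR's quasi-likelihood test and none had an unadjusted p under 0.05 there, where 0.979% of all genes tested passed the adjusted threshold (0.359% higher and 0.62% lower), 17.0% had an unadjusted p under 0.05 and 5.6% had groups that did not overlap. DESeq2 and limma on TPM also called none of the 10 after adjustment. Before it, DESeq2 on all libraries put Hyou1 under 0.05 (adjusted p = 0.282), and limma on log2(TPM + 1) put Creld2 (adjusted p = 0.224), Dnajb9 (adjusted p = 0.232) and Hyou1 (adjusted p = 0.245) under it, all 3 higher in CB1R KO. In that limma fit the median log2 fold change over all genes tested was 0.03. Over the 26 alternatives 0 to 3 members had an unadjusted p under 0.05. In all 10 the groups overlapped. The median log2 fold change was 0.10, beside 0.00 over all genes tested, with 6 members above 0 and 4 below, where 50.1% of all genes were above 0. The 95% intervals show how precisely each difference was estimated and set no firm bound on it. Hspa5 differed by 0.13 (95% interval -0.05 to 0.30, adjusted p = 0.454) and Sdf2l1 by -0.06 (95% interval -0.34 to 0.22, adjusted p = 0.853), both log2 fold changes. For Xbp1 the log2 difference was -0.11 (95% interval -0.28 to 0.06, adjusted p = 0.511). The values were 0.12 for Hyou1 (-0.01 to 0.25) and 0.08 for Pdia4 (-0.08 to 0.25), and 0.16 for Creld2 (-0.02 to 0.35), again on the log2 scale with 95% intervals. Dnajb9 had the largest difference, 0.23 (95% interval -0.02 to 0.49, adjusted p = 0.347), with CB1R KO libraries 8, 9 and 10 above all of WT bleomycin and library 11 within it. Ddit3 differed by 0.15 with the widest interval, -0.15 to 0.45 (adjusted p = 0.632). Ern1 was at -0.08 (-0.22 to 0.07), and Atf6 was at -0.04 (-0.19 to 0.11) and at 0.01 when TPM values were fitted instead. With only the libraries with lower-case titles, Hspa5 was 0.05, Hyou1 0.05, Pdia4 0.03, Xbp1 -0.03, Sdf2l1 -0.13 and Ddit3 0.02. In that setting Dnajb9 was 0.26, Creld2 0.20, Ern1 -0.09 and Atf6 0.01. It dropped WT bleomycin 4-B2 and 7 but no CB1R KO library, and 6 of all genes tested were called. Leaving out 1 library also moved several of the small differences. Sdf2l1 ran from -0.13 without CB1R KO bleomycin 10 to 0.06 without WT bleomycin 5, Ddit3 from 0.05 without CB1R KO bleomycin 8 to 0.28 without CB1R KO bleomycin 11, and Pdia4 from 0.02 without CB1R KO bleomycin 10 to 0.15 without CB1R KO bleomycin 9. Xbp1 was -0.06 without WT bleomycin 4-B2 or CB1R KO bleomycin 9, Hspa5 was 0.08 without CB1R KO bleomycin 10, Creld2 was 0.10 without CB1R KO bleomycin 11, Ern1 was -0.04 without WT bleomycin 4, and Atf6 ran from -0.07 to 0.02. These intervals, from 4 and 5 libraries, are not adjusted for the number of genes and are not limits of detection. The smallest detectable difference was not computed. A p that misses the threshold does not show that the groups are alike.

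Against Control, CB1R KO bleomycin lungs had 7 of the 10 members called, 6 higher and 1 lower, where 35.4% of all genes tested were called (19.0% higher and 16.3% lower). In 7 of the 10 the groups did not overlap (33.5% of all genes), 8 had an unadjusted p under 0.05 (45.5%) and 6 had a log2 fold change above 0 (49.2%). This comparison uses the same control libraries as the WT one, so the values are given side by side and are not independent of it. The log2 fold change was 0.73 for Hspa5 (0.60 in WT bleomycin), 1.28 for Sdf2l1 (1.34), 0.59 for Pdia4 (0.50), 0.47 for Hyou1 (0.35) and 0.29 for Xbp1 (0.40). The adjusted p was 2.88e-05 for Hspa5, 2.01e-05 for Sdf2l1, 8.94e-05 for Pdia4, 7.65e-05 for Hyou1 and 0.0164 for Xbp1. Creld2 rose by 0.37 (standard error 0.09, adjusted p = 0.00609), and all 4 CB1R KO libraries lay above all controls. Ern1 fell by 0.22 on the log2 scale (standard error 0.07, adjusted p = 0.0305). Its call was lost without Control 24 (-0.19, adjusted p = 0.0913), Control 26 (-0.20, adjusted p = 0.0715), CB1R KO bleomycin 8 (-0.20, adjusted p = 0.0762), 10 (-0.19, adjusted p = 0.0885) or 11 (-0.22, adjusted p = 0.0598). Xbp1 missed the threshold without Control 21 (0.26, adjusted p = 0.0504) or CB1R KO bleomycin 10 (0.24, adjusted p = 0.0532). Atf6 (-0.17, adjusted p = 0.0775), Dnajb9 (-0.08, adjusted p = 0.662) and Ddit3 (-0.03, adjusted p = 0.906) were not called. The last 2 stood at 0.01 and 0.05 when log2(TPM + 1) was fitted, where the median over all genes tested was 0.07. Creld2 and Ern1 were called in CB1R KO and not in WT bleomycin, but their direct differences between those groups, given above, did not pass the test.

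**Figure D3:**
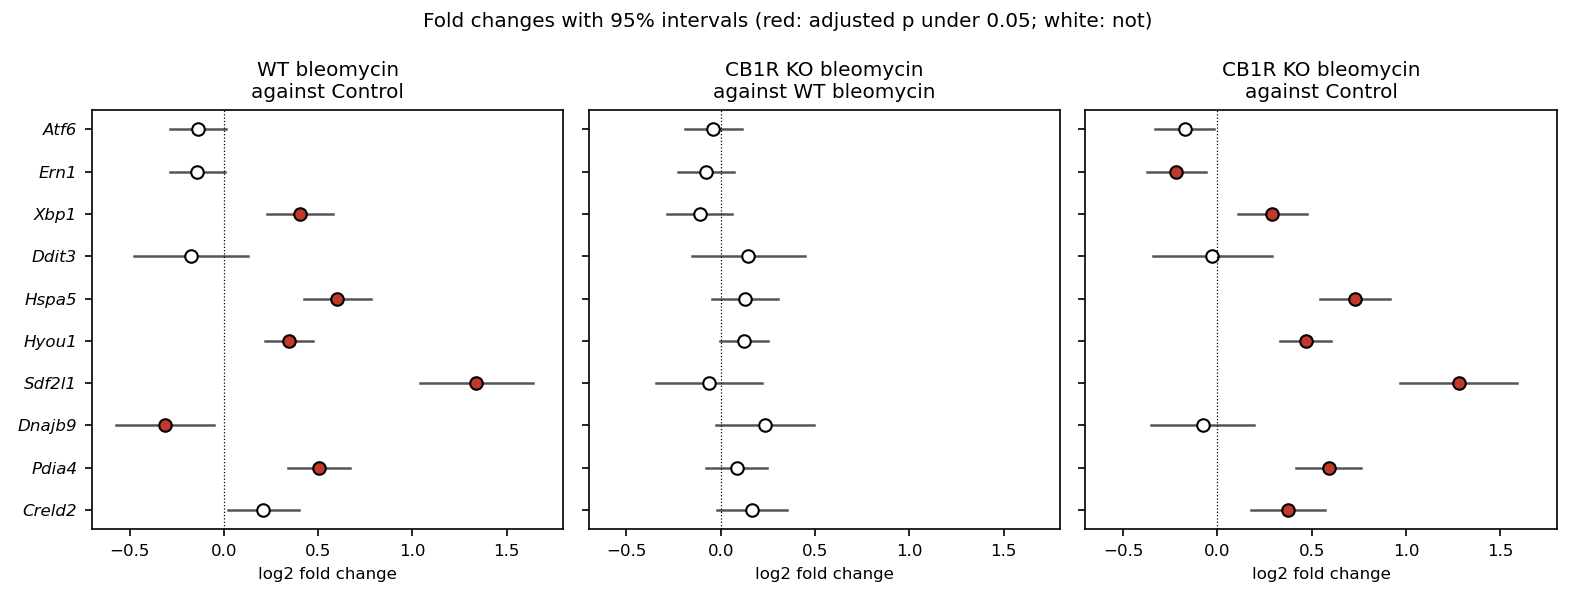
Log2 fold change (x axis) of the 10 ER stress genes (y axis) in WT bleomycin against Control, CB1R KO bleomycin against WT bleomycin and CB1R KO bleomycin against Control, with 95% intervals as lines; red points had an adjusted p under 0.05. Red points number 6, 0 and 7 in the 3 panels, and Sdf2l1 lies farthest right in both comparisons with Control.

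The genes around the members were counted from lists of the same pathway. The chaperone list (12 of 19 tested genes higher, 0 lower in WT bleomycin against Control) and the ER oxidoreductase list (11 of 19 higher, 1 lower) had higher calls in 63.2% and 57.9% of their genes, beside 25.0% of all genes called higher and 23.9% called lower. Calr, the gene of the calcium-binding lectin chaperone calreticulin, rose by 0.72 (standard error 0.09, adjusted p = 2.31e-05), and Ppib, a prolyl isomerase that works on collagen, rose by 0.47 (adjusted p = 1.31e-05). Erp29 rose by 0.63 (adjusted p = 8.39e-06) and Pdia3, the isomerase that pairs with calreticulin, rose by 0.55 (adjusted p = 2.64e-05). Ero1b, which supplies oxidising power to disulfide isomerases of the ER, fell by 0.45 on the log2 scale (adjusted p = 0.00168). Pdia3 was also the tested gene whose profile over the 13 libraries was nearest to that of Pdia4 (root mean square difference 0.07 in log2 CPM, each gene centred on its control mean), and Canx, the gene of calnexin, was nearest to Hyou1 (0.06). For Hspa5 the nearest was Cyp51, an enzyme of cholesterol synthesis (0.12), for Xbp1 it was Etf1, a translation termination factor (0.07), and for Sdf2l1 Phlda3 (0.16) and then Sparc, a matrix protein gene (0.18). The nearest were Zkscan3 for Ddit3 (0.13), Wac for Atf6 (0.06), Cr1l for Ern1 (0.07), Slc35a5 for Dnajb9 (0.11) and Bcam for Creld2 (0.11). Apart from Pdia3 and Canx, none of these nearest genes stood in the pathway lists. Within the 10 members the nearest profiles were those of Atf6 and Ern1 (0.095), then Hyou1 and Pdia4 (0.139). Atf6 and Ern1 themselves lay close to their control means (root mean square 0.157 and 0.173). Genes that move little are near each other by this measure, so it shows no shared regulation.

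The machinery that moves proteins into the ER and adds sugars to them is covered by a further pair of lists. Of the translocon and signal peptidase list, 11 of 19 were higher (57.9%) and 2 lower in WT bleomycin, and of the oligosaccharyltransferase list 7 of 10 tested were higher (70.0%, the largest share of the 9 lists) and 0 lower. Ssr2 (0.73, adjusted p = 3.01e-07), Spcs3 (0.58, adjusted p = 7.96e-06), Ostc (0.76, adjusted p = 1.09e-06) and Ddost (0.38, adjusted p = 6.63e-05) rose, as log2 fold changes, while the translocon partners Sec62 (-0.36, adjusted p = 0.000715) and Sec63 (-0.27, adjusted p = 0.0016) fell.

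ER-associated degradation extracts misfolded proteins for the proteasome. Of its list, 7 of 26 genes (26.9%) were higher and 4 (15.4%) lower in WT bleomycin against Control, near the 25.0% and below the 23.9% of all genes. Edem1, which marks glycoproteins for removal, rose by 0.69 (adjusted p = 5.18e-07) and Vcp, the ATPase that pulls them out, rose by 0.41 (adjusted p = 0.000262). The ubiquitin ligase gene Marchf6 fell by 0.32 on the log2 scale (adjusted p = 0.00113). Herpud1, a strongly stress-inducible part of this machinery, fell by 1.03 (standard error 0.20, adjusted p = 0.000691). It read 137, 248, 270.2 and 351 CPM in Control and 116, 97.5, 127, 133 and 143 in WT bleomycin, so Control 3 lay within the WT bleomycin range and Control 26 was far above it. Control 3 was likewise the lowest and Control 26 the highest control for Dnajb9.

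Among other sensors and factors, 3 of 11 tested (27.3%) were higher and 1 lower, a share of higher calls near the 25.0% of all genes. Eif2s1, the gene of the translation factor that PERK phosphorylates, rose by 0.65 (adjusted p = 2.90e-06), Creb3l1, a relative of ATF6 linked to collagen secretion, rose by 0.98 (adjusted p = 0.000569), and Eif2ak3 itself fell by 0.16 (adjusted p = 0.0276), a call held in 18 of 26 alternatives and lost without Control 21 (-0.14) or 24 (-0.16) or WT bleomycin 4 (-0.14) or 4-B2 (-0.14). In the PERK and CHOP branch 5 of 16 (31.2%) were higher and 2 (12.5%) lower. Tnfrsf10b, a death receptor gene, rose by 1.36 (adjusted p = 8.49e-07) and Stc2, a secreted glycoprotein gene, rose by 1.17 (adjusted p = 0.000217), while Vldlr, a lipoprotein receptor gene, fell by 0.78 (adjusted p = 2.14e-05) and Cebpg fell by 0.21 (adjusted p = 0.0445), a call held in 7 of 26 alternatives and lost when any 1 of 11 libraries was left out, at -0.23 to -0.16, the exceptions being Control 3 and WT bleomycin 4. For comparison outside the ER, 3 of 16 cytosolic heat shock genes (18.8%) were higher and 0 lower, among them Hsp90aa1 (0.39, adjusted p = 0.00168) and Stip1 (0.32, adjusted p = 0.025), and 4 of 14 mitochondrial chaperone and protease genes (28.6%) were higher and 0 lower, among them Timm23 (0.66, adjusted p = 1.33e-05) and Tomm40 (0.34, adjusted p = 0.00152). The heat shock count was 6 without Control 26, whose summed heat shock level was 4119 CPM where the other controls had 2837 to 3424, and 1 without Control 21. The call of Stip1 was lost without Control 3 (0.25), Control 21 (0.27) or WT bleomycin 5 (0.30).

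Between CB1R KO and WT bleomycin lungs, 1 gene of these 9 lists passed the test, where 0.979% of all genes tested passed. It was 1 of the 16 genes of the PERK and CHOP branch list, and no gene of the other lists was called. Vldlr was 0.45 higher on the log2 scale in CB1R KO (standard error 0.10, adjusted p = 0.048), with 55.8, 57.6, 42.3 and 52.6 CPM against 40.9, 35.6, 36.8, 34.9 and 41.9 in WT bleomycin. The CB1R KO libraries were all above those of WT bleomycin, and the call was held in 10 of 26 alternatives, with values from 0.35 to 0.54. It was lost without Control 24 or 26, WT bleomycin 2, 5, 4-B2 or 7, or CB1R KO bleomycin 8, 9 or 11, at 0.40 to 0.49.

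**Figure D4:**
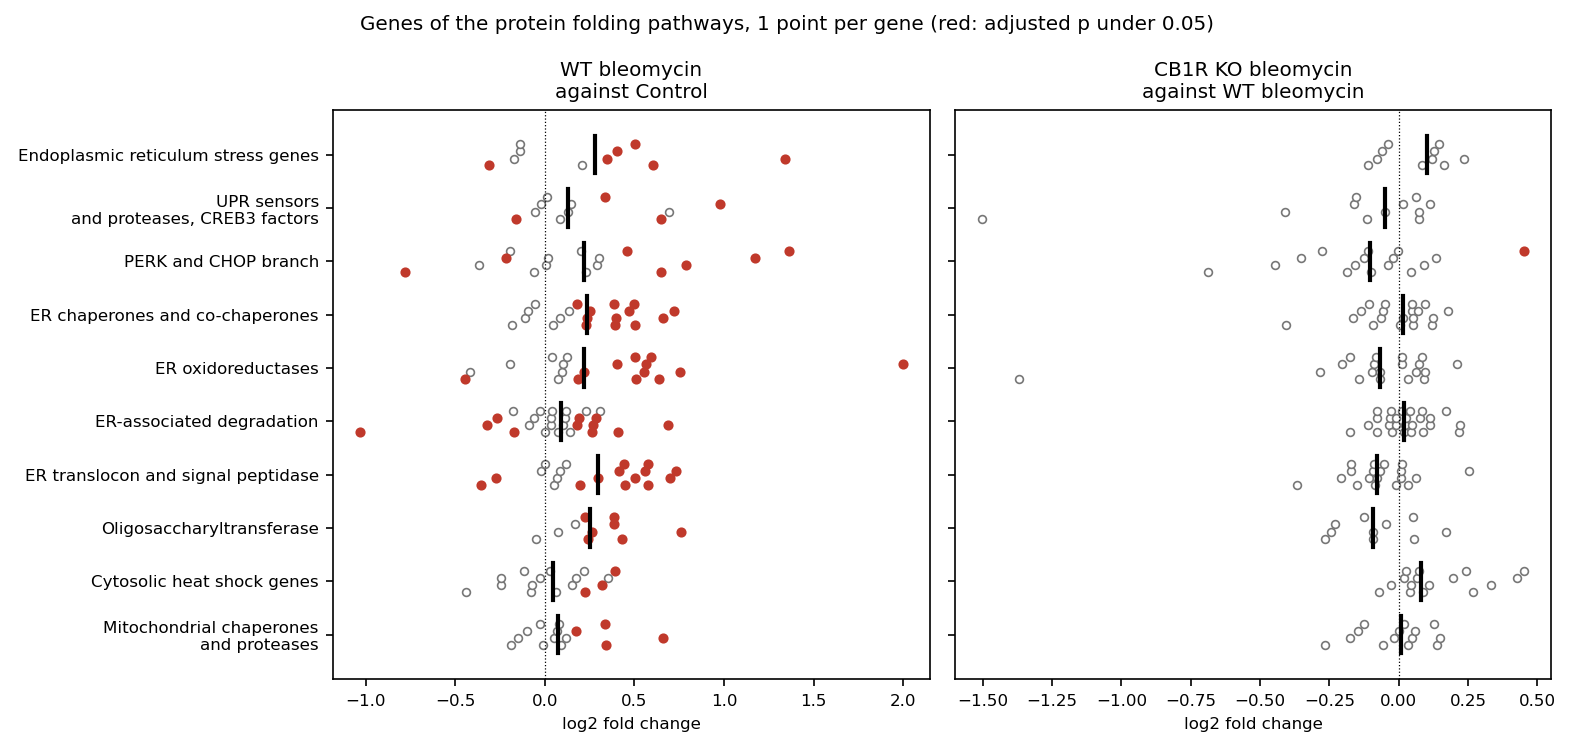
Log2 fold change (x axis) of every tested gene of the 10 ER stress genes and 9 surrounding lists (y axis), in WT bleomycin against Control (left) and CB1R KO against WT bleomycin (right), which have different x scales. Each point is a gene, red where the adjusted p was under 0.05, and the black bar is the median of the list. On the right the only red point is Vldlr.

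Cell type markers also differed between WT bleomycin and Control lungs, and their counts stand beside 25.0% of all genes called higher and 23.9% called lower. Of 10 fibroblast markers 7 were higher and 0 lower in WT bleomycin against Control, and their summed level was 2065 to 2419 CPM in Control, 6878 to 9957 in WT bleomycin and 5032 to 7831 in CB1R KO bleomycin. The macrophage list had 7 of 12 higher and 1 lower, with sums of 836 to 2163, 3084 to 3883 and 2613 to 3588 CPM in the same order. Plasma cell markers, of which Txndc5 and Derl3 also stand in the ER lists, had 3 of 10 tested higher (30.0%, near the share of all genes) and 1 lower, with sums of 516 to 545, 714 to 1048 and 685 to 903 CPM. In the other direction, 6 of 9 type II cell markers were lower and 1 higher (19539 to 23241, 12653 to 14351 and 14660 to 22780 CPM), 5 of 8 type I markers were lower and 0 higher (6816 to 7447, 4651 to 5166 and 4795 to 6479 CPM), and all 8 endothelial markers were lower (5024 to 5516, 3178 to 3453 and 3385 to 3936 CPM). All 10 B cell markers were lower (298 to 735, 129 to 324 and 226 to 294 CPM), as were all 10 muscle markers tested (753 to 1938, 124 to 501 and 513 to 912 CPM). Club and goblet cell markers, which share Agr2 with the oxidoreductase list, had 3 of 9 higher and 3 lower (18769 to 21438, 8691 to 13846 and 8947 to 10503 CPM), and ciliated cell markers had 1 of 8 lower and 0 higher (556 to 604, 345 to 495 and 323 to 457 CPM). No marker tested in these 10 lists was at 0 in any library, while the untested Tnfrsf17 of plasma cells and Acta1 and Myh4 of muscle were at 0 in 1 or more. Between CB1R KO and WT bleomycin, 3 of 9 type II markers and 1 of 8 endothelial markers, Tek, were higher and 1 of 9 club and goblet markers was lower, and no marker of the other 7 lists was called. In this comparison 0.359% of all genes tested were called higher and 0.62% lower. The type II count ran from 0 to 8 over the alternatives: it was 4 without Control 3, 2 without Control 21 or 26, 1 without Control 24 or WT bleomycin 2, 8 without CB1R KO bleomycin 10, and 0 without WT bleomycin 5, 4-B2 or 7 or CB1R KO bleomycin 8, 9 or 11. The sums of the CB1R KO and WT bleomycin groups did not overlap for the type II markers (lowest CB1R KO library 14660 CPM, highest WT bleomycin library 14351). Nor did they for the muscle markers (513 and 501 CPM in the same order). The part of these cell types in the levels of the 10 members was not tested. With the summed adipocyte marker level, which was 43.0 to 163 CPM in WT bleomycin, 84.5 to 381 in Control and 74.4 to 331 in CB1R KO bleomycin, as a covariate, 5 members were called in WT bleomycin against Control, the 5 that rose.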

How the data were processed

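Lung RNA of 13 mice was sequenced by the authors from oligo(dT)-selected, paired-end libraries. Both estimated counts and TPM values were deposited, which the authors made with Kallisto on the Ensembl release 105 mouse reference (GRCm39 per the labels) and summed per gene symbol, keeping protein-coding transcripts. Of the count values, 70.2% were not whole (tolerance 1e-06). A single column of TPM values (1 in all) belonged to no listed sample and was not used.

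Estimated counts were rounded and fitted in edgeR 4.0.16 (R 4.3.3) after filterByExpr and TMM scaling, with 1 coefficient per group, no covariate, quasi-likelihood tests and Benjamini-Hochberg adjustment over 15315 genes at 0.05. The standard error is the log2 fold change over the root of F, and its median over all genes tested was 0.11, 0.11 and 0.12 in the 3 comparisons. Profiles in log2 CPM had a prior count of 2. Unless another setting is named beside them, results given in the report come from 1 fit to all 13 libraries. The fit was tested on simulated data before use. No 2 libraries held the same values, and replicates differed by more than sampling noise. The p-values measure the spread between the mice sequenced, for which no cage or litter was given in the sources used here.

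The members and lists were chosen with earlier results of these data known. All members are named. From each pathway list the 2 genes of lowest p in each direction past the threshold are named for WT bleomycin against Control and for CB1R KO against WT bleomycin, and for each member the tested genes of nearest profile were ranked. In every comparison 26 alternatives were run: other filters, scalings and tools (DESeq2 1.42.0, limma 3.58.1 on log2 TPM with a pseudocount of 1 or 0.1), other library sets and covariates (title style, adipocyte marker level), thinning of the deepest library, and each library left out. Promoters were matched to RefSeq by symbol.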

Additional observations from a re-analysis of the deposited data

Results flagged for a closer look

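Among 30 combinations of a member and a group, 1 held a library far from the rest of its group, where chance alone gives about 5% of such combinations. Dnajb9 in WT bleomycin 5 was the lowest of its group at 48.0 CPM, and the other 4 WT bleomycin libraries lay between 55.7 and 58.8 CPM. The same library had the highest Sdf2l1 level of the 13, 45.9 CPM.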

How the results depend on the processing

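Over the 26 alternatives the number of members called ran from 5 to 7 in WT bleomycin against Control (6 in the report) and from 5 to 8 in CB1R KO bleomycin against Control (7), and it was 0 in every alternative for CB1R KO against WT bleomycin, although the number called over all genes there ran from 0 with the adipocyte covariate to 653 without CB1R KO bleomycin 10 (150 in the report). Hspa5, Hyou1, Pdia4 and Sdf2l1 were called higher against Control in all 26 alternatives of both comparisons. In CB1R KO bleomycin against Control, Atf6 was past the threshold with upper-quartile scaling (-0.19, adjusted p = 0.0498) and Ern1 was not when TPM was fitted (-0.14, adjusted p = 0.187) or with only the libraries with lower-case titles (-0.19, adjusted p = 0.0867). Members near 0 changed sign, none of them called in either setting. The TPM fits also moved the median over all genes tested. With pseudocounts of 1 and 0.1 it was 0.0325 and 0.0376 in CB1R KO against WT bleomycin. In CB1R KO bleomycin against Control it was 0.0664 and 0.0784. Against WT bleomycin, Atf6 in CB1R KO was 0.0070 and 0.0073 when log2 TPM was fitted with a pseudocount of 1 and 0.1, 0.0054 with lower-case titles only, and between -0.075 and 0.0182 with each library left out, and Sdf2l1 was between -0.1279 and 0.0593 with each left out. Against Control, Ddit3 was 0.0057 in WT with lower-case titles only, and in CB1R KO it was 0.0484 and 0.0491 (TPM), 0.0274 (lower-case titles) and between -0.1163 and 0.1074 (each left out). Dnajb9 in CB1R KO against Control was 0.0126 and 0.0128 (TPM), 0.0075 (lower-case titles) and between -0.1842 and 0.0188 (each left out). The cause was not tested. Whether depth or the number of mice limits these calls was not tested beyond thinning the deepest library, which left the counts of members called at 6, 0 and 7. No paired analysis was possible because the groups share no replicate numbers.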
